A study of Mus musculus with 7 samples.

Results

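The neuronal and neural crest marker genes described here are Elavl3, Elavl4, Stmn2, Tubb3, Sox10 and Hand2. They were chosen by name, and their members are the 15 probe sets annotated to exactly 1 of these 6 genes, out of 45037 non-control probe sets on the array. Elavl3, Elavl4, Sox10 and Hand2 have 3 probe sets each, Stmn2 has 2 and Tubb3 has 1.

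RNA came from mouse kidneys at E12.5, the embryonic day of study, microdissected into metanephric mesenchyme, stalks of the ureteric bud and tips of the ureteric bud, with 2 arrays of each labelled as biological replicates. A further array held mIMCD-3, an established line of mouse inner medullary collecting duct cells, as a confluent culture of 1 subclone. The 6 tissue arrays came from an earlier publication, so the cell line and the time of its hybridisation cannot be told apart. The genotype and strain of the embryos, and how many were pooled per array, are not given in the sources used here. Deposited intensities were converted to log2, so that 1 unit is a doubling of the signal. Of the dissection checks, the E-cadherin gene Cdh1 lay at 3.68 and 4.0 in mesenchyme and between 10.45 and 11.09 in stalk and tip, the tip receptor gene Ret rose from stalk to tip by 2.18, and the nephron progenitor gene Six2 was at 9.84 and 9.88 in mesenchyme and between 6.80 and 7.63 in the bud arrays. The stromal gene Foxd1 was at 9.88 and 9.94 in stalk, at 6.14 and 6.63 in tip and at 9.57 in mIMCD-3. Foxd1 alone therefore does not mark stroma here. Summed over 10 stromal markers, intensity was 17924 and 17143 in stalk, 2076.9 and 1641.5 in tip and 1464.9 in mIMCD-3. Stalk arrays thus carried stromal signal.

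The autonomic nerves of the developing kidney arise from neural crest cells, which migrate from the dorsal neural tube and also give rise to sensory ganglia, Schwann cells and the chromaffin cells of the adrenal medulla. Elavl3 and Elavl4 encode HuC and HuD, RNA-binding proteins of post-mitotic neurons. Stmn2 encodes stathmin-2, a microtubule regulator of growing axons, and Tubb3 encodes a neuronal beta tubulin. Sox10 encodes a transcription factor of migrating neural crest and glia, and Hand2 a basic helix-loop-helix (bHLH) factor required in sympathetic neurons and also active in limb, heart and other mesenchyme. A gene of this kind in a dissected tissue can come from nerve cells within it or from the tissue's own cells, and in bulk RNA fewer cells of a type and less RNA per cell cannot be told apart.

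The promoters of Elavl4 and Hand2, whose brightest probe sets were both highest in mesenchyme, and of Elavl3, the close relative of Elavl4 that did not pass a test, are printed so that their E-boxes can be compared. An E-box, the letters CANNTG on either strand, is the core motif of bHLH factors. Sequences are from RefSeq on assembly GRCm38.p6, from 250 bases before to 50 bases after the annotated start, 5′ to 3′ on the gene's strand, with E-boxes in capitals. Of the 6 genes, 4 matched the promoter table. Elavl4 lies at chr4:110351862-110352161 on the minus strand (the outermost of 4 listed starts), Hand2 at chr8:57320733-57321032 on the plus strand and Elavl3 at chr9:22051974-22052273 on the minus strand.
Elavl4: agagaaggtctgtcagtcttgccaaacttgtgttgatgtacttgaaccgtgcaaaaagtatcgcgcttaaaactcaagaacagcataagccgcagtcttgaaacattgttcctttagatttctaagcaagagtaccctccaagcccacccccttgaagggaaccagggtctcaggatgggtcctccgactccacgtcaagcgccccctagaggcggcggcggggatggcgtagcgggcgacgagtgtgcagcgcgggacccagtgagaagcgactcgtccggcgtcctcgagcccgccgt
Hand2: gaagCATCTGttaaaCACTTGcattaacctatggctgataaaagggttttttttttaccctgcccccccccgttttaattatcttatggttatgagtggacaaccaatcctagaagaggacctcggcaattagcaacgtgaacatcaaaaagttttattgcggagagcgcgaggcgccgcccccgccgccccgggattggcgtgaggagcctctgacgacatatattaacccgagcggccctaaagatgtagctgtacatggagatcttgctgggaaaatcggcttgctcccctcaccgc
Elavl3: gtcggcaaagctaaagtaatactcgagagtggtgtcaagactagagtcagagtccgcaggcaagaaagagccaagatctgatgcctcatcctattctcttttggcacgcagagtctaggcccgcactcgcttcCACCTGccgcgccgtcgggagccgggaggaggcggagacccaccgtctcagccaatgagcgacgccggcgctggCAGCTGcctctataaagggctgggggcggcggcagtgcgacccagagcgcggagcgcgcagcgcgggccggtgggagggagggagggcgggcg
The Hand2 window held 2 E-boxes, CATCTG at -246 and CACTTG at -235 from the annotated start. The Elavl3 window also held 2, CACCTG at -117 and CAGCTG at -43. The Elavl4 window held 0 such letters, while windows at its other 3 starts held 1, 4 and 4, with 1 CATCTG in each. The windows with 4 overlap over most of their length, so their counts are not separate. CANNTG occurs in 72.3% of the 32851 promoter windows of this length in the table, so holding it is usual. CATCTG occurs in 17.2%. The Tubb3 window, at chr8:123411303-123411602 on the plus strand, held 0 E-boxes. These matches describe letters and not binding.

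Elavl4, Stmn2 and Hand2 were higher in metanephric mesenchyme than in ureteric bud stalk or tip, by 1.58-fold to 11.9-fold over the probe sets that passed the test. For Hand2 this held at 1436041_at alone. Neither its other probe sets nor the mean of its probe sets passed against mesenchyme. The largest fold is at a probe set (1423281_at of Stmn2) whose tip arrays lay below the lower quartile of all probe sets of those arrays, so its size is uncertain. Both tip arrays of 1428741_at of Elavl4 also lay below that quartile. So did a tip array of 1450258_a_at and of 1452894_at of Elavl4 and of 1436041_at of Hand2. Elavl3, Tubb3 and Sox10 did not pass it in any comparison of the fit. In stalk against mesenchyme, 6 of 15 probe sets, in 3 of 6 genes, were called lower and 0 higher, beside 0.653% of all probe sets called lower and 2.5% called higher. In tip against mesenchyme the same counts, 6 lower and 0 higher, stood beside backgrounds of 5.52% lower and 4.78% higher. In tip against stalk 2 of 15, both of Stmn2, were called lower and 0 higher, beside 4.56% lower and 1.71% higher. At an unadjusted p under 0.05, 0 members were higher in stalk or in tip than in mesenchyme, and 3 were higher in tip than in stalk. Beyond the called probe sets, 1451689_a_at of Sox10 was lower at that threshold in stalk and in tip than in mesenchyme. So was 1452894_at of Elavl4 in tip against stalk. The share of all probe sets at that threshold was not computed, so these counts have no background beside them. The median difference of the 15 probe sets was -0.33, -0.12 and -0.03 in these comparisons, against -0.04, 0.02 and 0.07 over all probe sets. Calls rest on 1 limma fit of the 6 tissue arrays, with an adjusted p under 0.05 after Benjamini-Hochberg correction across the array. Both stalk arrays were below both mesenchyme arrays at 12 of 15 probe sets, beside 24.6% of all probe sets, both tip arrays below mesenchyme at 7 of 15, beside 19.4%, and both tip arrays below stalk at 5 of 15, beside 19.1%. The comparisons with mesenchyme share the same mesenchyme arrays. Probe sets of a gene are not independent of each other, and 4 of the genes have probe sets designed on a shared transcript accession.

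**Figure D1:**
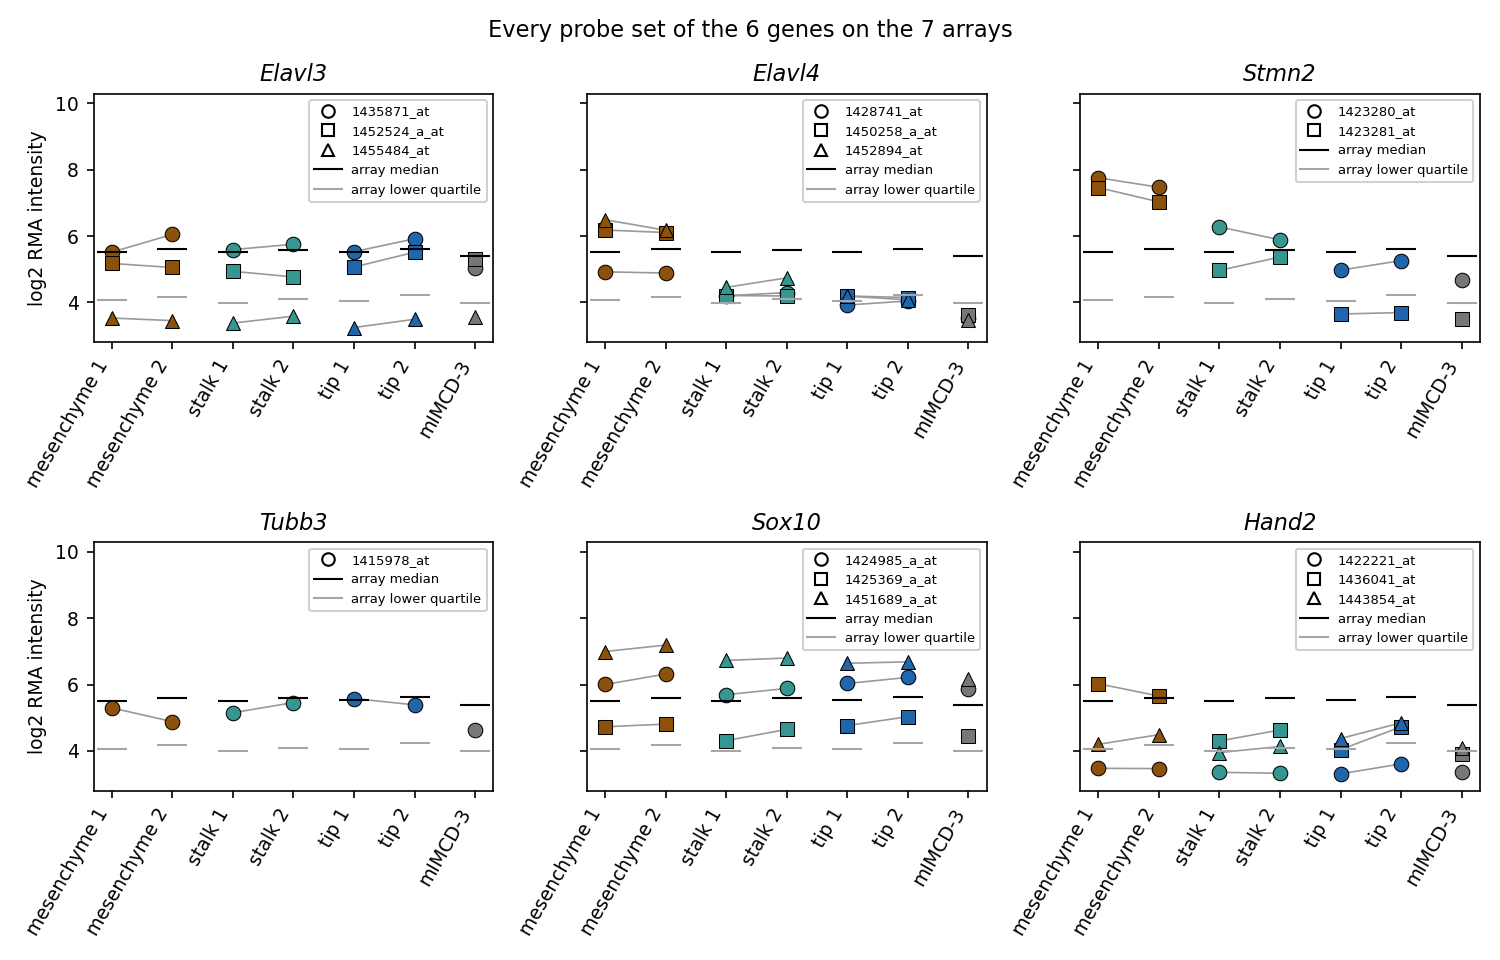
Log2 RMA intensity of every member probe set (vertical axis) on each of the 7 arrays (horizontal axis), 1 panel per gene, with symbols for probe sets and short lines for the array's median and lower quartile over all probe sets. In Elavl4 and Stmn2 all probe sets are highest in both mesenchyme arrays, in Hand2 this holds for 1436041_at, and in Elavl3, Tubb3 and Sox10 the tissues lie close together.

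The neuronal RNA-binding protein gene Elavl4 was highest in mesenchyme. Its brightest probe set, 1452894_at, read 6.49 and 6.17 in mesenchyme, 4.45 and 4.74 in stalk, 4.19 and 4.07 in tip and 3.45 in mIMCD-3. Both mesenchyme arrays stood above every other array, with no overlap between the 3 tissues. The difference was -1.74 (SE 0.17) in stalk, a 3.34-fold lower level (adjusted p = 0.00117), and -2.20 (SE 0.17) in tip, 4.60-fold lower (adjusted p = 0.000101).

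The second Elavl4 probe set, 1450258_a_at, read 6.18 and 6.10 in mesenchyme, 4.20 and 4.19 in stalk, 4.19 and 4.14 in tip and 3.62 in mIMCD-3. Stalk and tip overlapped at this probe set, and each lay clear of mesenchyme. It was 3.85-fold lower in stalk (adjusted p = 0.000148) and differed by -1.98 in tip (SE 0.13, adjusted p = 3.92e-05). The third, 1428741_at, read 4.92 and 4.88 in mesenchyme, 4.20 and 4.29 in stalk, 3.92 and 4.04 in tip and 3.52 in mIMCD-3. It differed by -0.66 in stalk (SE 0.13, adjusted p = 0.0382) and by -0.92 in tip (SE 0.13, adjusted p = 0.00272). The stalk call of 1428741_at was lost on leaving out any 1 of mesenchyme replicate 1, mesenchyme replicate 2, stalk replicate 1 or stalk replicate 2, with adjusted p between 0.203 and 0.442. Between stalk and tip the Elavl4 differences of -0.27 (95% interval -0.57 to 0.03), -0.03 (-0.32 to 0.26) and -0.46 (-0.85 to -0.08) did not pass the test, with adjusted p of 0.352, 0.925 and 0.194 for 1428741_at, 1450258_a_at and 1452894_at. The order was therefore mesenchyme above stalk and tip, with the single mIMCD-3 array lowest. Tip against stalk was not called, although both tip arrays lay below both stalk arrays at 1428741_at and 1452894_at.

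Stmn2, the axonal stathmin, stepped down from mesenchyme to stalk and from stalk to tip. Its probe set 1423280_at read 7.76 and 7.47 in mesenchyme, 6.27 and 5.88 in stalk, 4.97 and 5.26 in tip and 4.68 in mIMCD-3. Its other probe set, 1423281_at, read 7.46 and 7.03, then 4.96 and 5.37, then 3.65 and 3.69, and 3.48 in mIMCD-3. No tissue overlapped another at either probe set.

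Against mesenchyme, stalk was lower by 2.90-fold at 1423280_at (difference -1.53, SE 0.19, adjusted p = 0.00392) and 4.23-fold at 1423281_at (-2.08, SE 0.19, adjusted p = 0.00105). Tip was lower by 5.66-fold (-2.50, SE 0.19, adjusted p = 1e-04) and 11.9-fold (-3.58, SE 0.19, adjusted p = 2.1e-05). The 11.9-fold is of uncertain size, because both tip arrays lay below the lower quartile of their arrays at 1423281_at. Stmn2 was the only member gene also called between the bud tissues. Tip lay below stalk by 0.97 at 1423280_at, as a difference of -0.97 (95% interval -1.40 to -0.53, adjusted p = 0.0225), and at 1423281_at by a difference of -1.50 (-1.95 to -1.04, adjusted p = 0.00324). The call at 1423280_at was lost without stalk replicate 1 (-0.77, adjusted p = 0.201) and without tip replicate 1 (-0.82, adjusted p = 0.0627). On the log2(value + 32) scale, which damps dim signals, neither Stmn2 probe set passed between tip and stalk, with adjusted p of 0.0721 and 0.0746.

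Hand2, the sympathetic and mesenchymal bHLH factor, gave different readings by probe set. Its brightest, 1436041_at, read 6.02 and 5.65 in mesenchyme, 4.30 and 4.63 in stalk, 4.04 and 4.72 in tip and 3.92 in mIMCD-3. Mesenchyme stood apart, while the tip arrays spanned the stalk arrays. The difference was -1.37 in stalk (2.59-fold lower, SE 0.25, adjusted p = 0.0262) and -1.46 in tip (2.75-fold lower, SE 0.25, adjusted p = 0.00743), and -0.08 between tip and stalk (95% interval -0.66 to 0.49, adjusted p = 0.892).

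The stalk call of Hand2 rested on all 4 arrays compared. It was lost without mesenchyme replicate 1 (-1.19, adjusted p = 0.154), mesenchyme replicate 2 (-1.56, adjusted p = 0.0572), stalk replicate 1 (-1.21, adjusted p = 0.185) or stalk replicate 2 (-1.54, adjusted p = 0.062). The tip call was lost without mesenchyme replicate 1 (-1.27, adjusted p = 0.0521). Probe set 1443854_at of Hand2 read 4.19 and 4.49 in mesenchyme, 3.95 and 4.13 in stalk, 4.37 and 4.85 in tip and 4.09 in mIMCD-3. Here the highest array was of tip, and mesenchyme did not stand out. Its tip minus stalk difference of 0.57 (95% interval 0.12 to 1.02) had an adjusted p of 0.168, and 0.0162 with the replicate number as a block. Probe set 1422221_at of Hand2 stayed between 3.30 and 3.60 on the 7 arrays, below the lower quartile of each, where a difference is hard to read. Over the mean of its 3 probe sets, Hand2 differed by -0.60 in stalk (adjusted p = 0.122) and -0.40 in tip (adjusted p = 0.196) from mesenchyme.

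**Figure D2:**
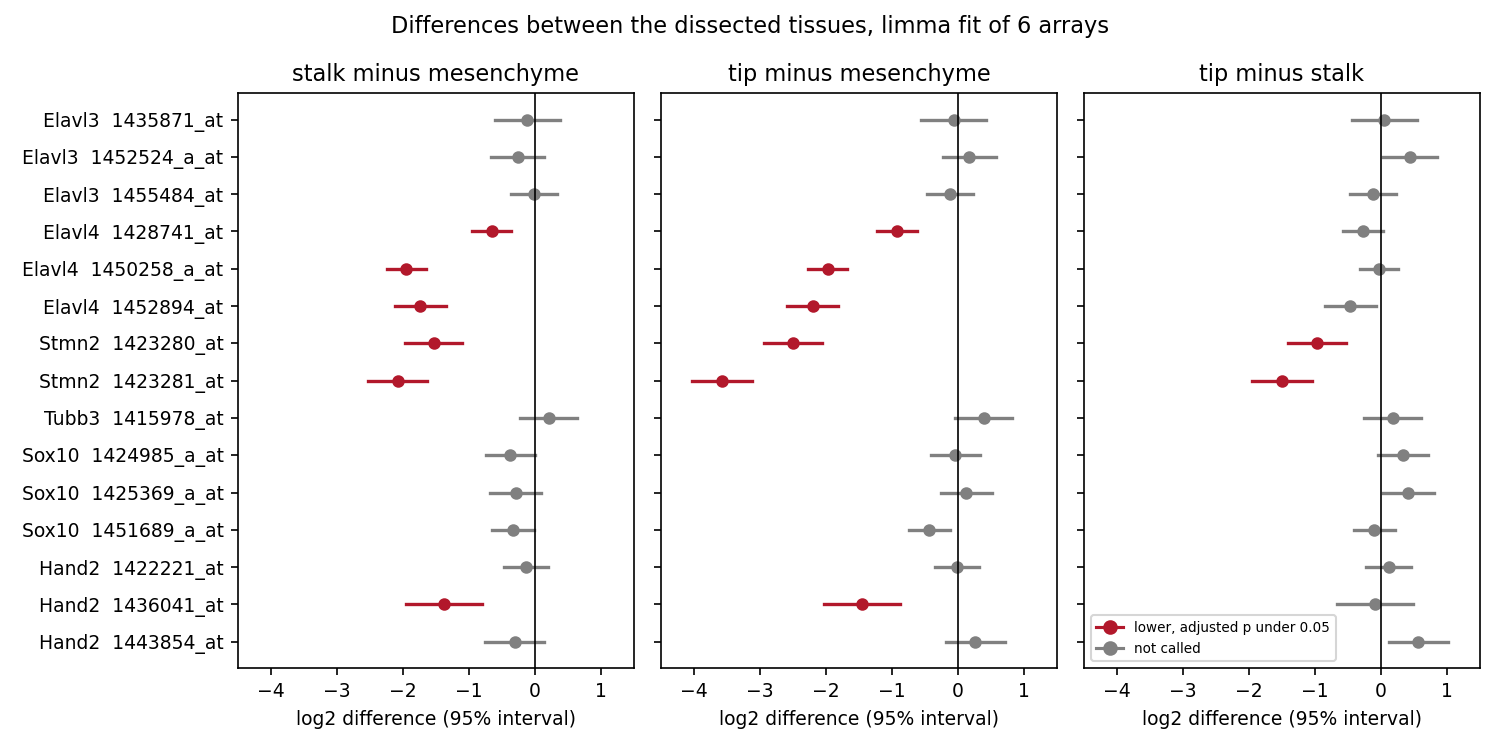
Log2 difference between tissues (horizontal axis) for each member probe set (rows), 1 panel per comparison, as points with 95% intervals from the limma fit of 6 arrays. Red marks the probe sets called lower: 6 in stalk minus mesenchyme, 6 in tip minus mesenchyme and the 2 of Stmn2 in tip minus stalk.

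Elavl3, the closest relative of Elavl4 among the members, did not pass the test between any of the tissues. Probe set 1435871_at read 5.51 and 6.05 in mesenchyme, 5.59 and 5.75 in stalk, 5.53 and 5.92 in tip and 5.05 in mIMCD-3. Stalk and tip lay within the range of the mesenchyme arrays. Its differences from mesenchyme were -0.11 in stalk (95% interval -0.60 to 0.38) and -0.06 in tip (-0.55 to 0.43). Probe set 1452524_a_at read 5.17 and 5.05, 4.93 and 4.76, and 5.06 and 5.51 in the 3 tissues, and 5.31 in mIMCD-3. Both tip arrays were above both stalk arrays there, by 0.44 (0.03 to 0.85, adjusted p = 0.252). Probe set 1455484_at of Elavl3 stayed between 3.24 and 3.58, below the lower quartile on all 7 arrays. The Elavl3 probe sets did not follow each other over the 7 arrays, with pairwise correlations between -0.13 and 0.09, whereas those of Elavl4 correlated at 0.94 to 0.98 and those of Stmn2 at 0.98. These are descriptions over arrays of shared tissues.

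Tubb3, the neuronal beta tubulin often used to stain renal nerves, was not called in any comparison. Its 1 probe set, 1415978_at, read 5.29 and 4.88 in mesenchyme, 5.15 and 5.45 in stalk, 5.58 and 5.39 in tip and 4.63 in mIMCD-3. Both tip arrays lay above both mesenchyme arrays, and stalk overlapped each. The differences from mesenchyme of 0.21 in stalk (95% interval -0.22 to 0.65, adjusted p = 0.84) and 0.39 in tip (-0.04 to 0.83, adjusted p = 0.315) did not pass the test.

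Sox10, the neural crest and glial factor, gave differences of less than 0.5 log2 units at each of its 3 probe sets. Its brightest, 1451689_a_at, read 7.0 and 7.19 in mesenchyme, 6.73 and 6.80 in stalk, 6.64 and 6.68 in tip and 6.16 in mIMCD-3. These tissues did not overlap and mesenchyme was highest. The tip minus mesenchyme difference of -0.43 (95% interval -0.74 to -0.12) had an adjusted p of 0.1, and of 0.0305 with the replicate block. The stalk difference was -0.33 (-0.64 to -0.02, adjusted p = 0.438).

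Probe set 1424985_a_at of Sox10 read 6.0 and 6.32 in mesenchyme, 5.69 and 5.88 in stalk, 6.03 and 6.22 in tip and 5.85 in mIMCD-3. Stalk was lowest of the tissues, and tip lay within mesenchyme. Probe set 1425369_a_at read 4.72 and 4.81, 4.31 and 4.65, and 4.76 and 5.03, with 4.45 in mIMCD-3. Again both stalk arrays were lowest. Neither passed the test, with stalk minus mesenchyme differences of -0.37 (adjusted p = 0.497) and -0.29 (adjusted p = 0.698). The 3 Sox10 probe sets correlated between 0.39 and 0.88 over the 7 arrays.

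In mIMCD-3 the members were mostly at or below their lowest tissue level. Of the 15 probe sets, 9 lay below all 6 tissue arrays there, beside 31.6% of all probe sets, and 0 lay at least 1 unit beyond every tissue array in either direction, beside 3.61% lower and 6.07% higher. The 9 were 1435871_at of Elavl3, all 3 of Elavl4, both of Stmn2, that of Tubb3, 1451689_a_at of Sox10 and 1436041_at of Hand2. mIMCD-3 was nearer to tip than to mesenchyme at the probe sets called against mesenchyme. It differed from mesenchyme by -2.88 and from tip by -0.68 at 1452894_at of Elavl4. For Stmn2 at 1423281_at these values were -3.76 and -0.18, and for Hand2 at 1436041_at they were -1.92 and -0.46. At these probe sets mIMCD-3 lay below the lower quartile of its array, as did both tip arrays at 1423281_at, so nearness of dim signals is hard to read. At 1443854_at of Hand2, which was not called, mIMCD-3 was nearer to mesenchyme (-0.25) than to tip (-0.51). With 1 array there is no test.

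At their brightest probe sets, Elavl4 and Stmn2 correlated at 0.97 over the 7 arrays, Elavl4 and Hand2 at 0.95, and Stmn2 and Hand2 at 0.92. The Hand2 values are those of 1436041_at, which itself correlated at only 0.22 with 1443854_at and 0.52 with 1422221_at. Sox10 correlated with Elavl4, Stmn2 and Hand2 at 0.89, 0.87 and 0.83, Elavl3 at 0.47, 0.45 and 0.50, and Tubb3 at 0.05, -0.05 and 0.02. Among 3543 genes with an SD of at least 0.5 over the 7 arrays, the 5 most like Elavl4 were Meox1 and Six2, transcription factors of metanephric mesenchyme, Gpx6, the neuronal microtubule gene Dcx and Tafa5, with r of 0.99 or higher. The 5 most like Stmn2 were Arg1, Des, Cavin2, Tagln and Adamts12 (r = 0.99), of which Des and Tagln encode desmin and a smooth muscle actin-binding protein. Those most like Hand2 were Ebf2, Zmat4, Cysltr1, Doc2b and the presynaptic gene Pclo (r between 0.97 and 0.99). Sox10 was most like S1pr1, Icam1, Dusp5, Tcf7l1 and Hs3st6 (r of 0.98 or higher), Tubb3 was most like Ly6h, Gnaz, Plod1, Dmd and Ankrd45 (r between 0.93 and 0.96), and Elavl3 was most like Edn3, Fcgr2b, Gm5142, Galm and Macroh2a3 (r between 0.90 and 0.99). With 7 arrays from 4 sources, these orders describe pattern over the arrays, mIMCD-3 included, and carry no p. Elavl3, Tubb3 and Sox10 did not pass the test between tissues, and the single mIMCD-3 array, lowest at their brightest probe sets, weighs on their orders and correlations. Edn3, for example, averaged 7.32 in mesenchyme, 7.11 in stalk and 7.19 in tip and read 6.07 in mIMCD-3. The Sox10 values here are those of 1451689_a_at, and at its other probe sets stalk was the lowest of the tissues.

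The members' relatives were read at the brightest probe set of each gene, where 0.962% of 18193 genes were called lower and 3.74% higher in stalk against mesenchyme, 7.56% lower and 6.56% higher in tip against mesenchyme, and 6.31% lower and 2.33% higher in tip against stalk. Among the other Hu proteins, the neuronal and germ cell member Elavl2 was lower in tip by 2.21-fold (difference -1.15, SE 0.25, adjusted p = 0.0247). Its stalk difference of -0.91 had an adjusted p of 0.15, and of 0.00374 with the replicate block. The Elavl2 tip call was lost without mesenchyme replicate 1 (-0.92, adjusted p = 0.153) or tip replicate 2 (-0.81, adjusted p = 0.0801). Elavl1, the member made by most cells, differed by 0.02 in stalk and 0.06 in tip.

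Of 3 other stathmins, the neuronal Stmn3 was lower in tip by 0.78 on the log2 scale, as a difference of -0.78 (SE 0.15, adjusted p = 0.0149). In stalk Stmn3 differed by -0.68 (adjusted p = 0.0666, and 0.0181 with the replicate block). Its tip call was lost without mesenchyme replicate 1 (adjusted p = 0.0567), mesenchyme replicate 2 (0.102) or tip replicate 2 (0.0539). Stmn1 and Stmn4 differed by -0.26 and -0.11 in tip and did not pass. With trended robust variances in limma, Stmn1 was called lower in tip (adjusted p = 0.000148) and in stalk (-0.23, adjusted p = 0.0011). Of 7 other beta tubulins, Tubb4a and Tubb4b were higher in tip than in mesenchyme (1.40 and 0.97) and Tubb6 was lower (-1.13), so no single direction held. Over the mean of its probe sets Tubb4b differed by 0.40 (adjusted p = 0.117). With the replicate block Tubb2a (-0.57, adjusted p = 0.0122) was also lower and Tubb2b (0.51, adjusted p = 0.0157) higher in tip, and Tubb2a was higher in stalk (0.63, adjusted p = 0.0179). Tubb1 and Tubb5 differed by -0.28 and -0.09 in tip and were not called. Tubb4a was also higher in stalk (0.72, adjusted p = 0.0386), a call lost without any 1 of the 4 mesenchyme and stalk arrays. The Tubb6 call was lost without mesenchyme replicate 1 (-1.03, adjusted p = 0.0713).

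The SoxE relatives of Sox10 were both higher in tip than in mesenchyme, and 1 of the 2 was in stalk. Sox9, a factor of ureteric epithelium, was higher than in mesenchyme by 1.82 in stalk (adjusted p = 0.00286) and 1.28 in tip (adjusted p = 0.00598), and Sox8 by 2.40 in tip (adjusted p = 0.000138), with 0.37 in stalk (adjusted p = 0.632). Among bHLH relatives and partners of Hand2, 5 of 7 were lower in tip than in mesenchyme (2 without mesenchyme replicate 1) and 0 of 7 were called in stalk, where 2 were higher at an unadjusted p under 0.05. Twist1 (-3.30), the stromal factor Tcf21 (-2.15), Twist2 (-1.49), Tcf4 (-0.92) and Tcf12 (-0.63) were the 5, and Hand1 and Tcf3 differed by -0.08 and 0.13. The Tcf12 call was lost without any 1 array other than tip replicate 1, and those of Twist2 and Tcf4 without mesenchyme replicate 1. Hand2 at 1436041_at had a difference of -1.37 in stalk, where Twist1 had -0.41 and Tcf21 0.40.

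Among 36 pan-neuronal genes, 5 were lower and 2 higher in stalk than in mesenchyme, with a median difference of -0.20 against -0.04 over all genes. The 5 were Dcx (-2.16, adjusted p = 0.000143), the neurofilament genes Nefl (-1.54, adjusted p = 0.00114) and Nefm (-0.91, adjusted p = 0.0303), the synuclein gene Sncg (-1.19, adjusted p = 0.0326) and Crmp1 (-0.93, adjusted p = 0.00628), whose product acts in axon guidance. The 2 higher were the adhesion molecule gene L1cam (1.92), which ureteric epithelium is also known to express, and Syt1 (0.94, adjusted p = 0.0336). Leaving out mesenchyme replicate 1, stalk replicate 1 or stalk replicate 2 left 2 lower, and leaving out mesenchyme replicate 2 left 3, with Dcx and Nefl called each time. Only 1 gene was higher without any 1 of these 4 arrays.

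In tip, 11 of the 36 were lower and 3 higher than in mesenchyme, with a median of -0.15 against 0.01. The largest falls were Nefm (-3.11), Nefl (-3.02), Dcx (-2.31) and Crmp1 (-2.31), and Sncg (-2.01) and Dpysl3 (-1.91) fell too. L1cam (2.70), Uchl1 (2.01) and Rtn1 (0.58) were higher. In tip against stalk 8 were lower and 2 higher. The lower count was 13 and the higher count 4 with the replicate block, and leaving out stalk replicate 1 or stalk replicate 2 gave 5 and 0. Without tip replicate 1, 4 genes were higher. Nefl (-1.48, adjusted p = 0.000837) and Nefm (-2.20, adjusted p = 0.000255) fell from stalk to tip as Stmn2 did, while Dcx (-0.15, 95% interval -0.47 to 0.17) did not pass, as for Elavl4.

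Dcx read 7.10 and 6.92 in mesenchyme, 4.80 and 4.90 in stalk, 4.76 and 4.63 in tip and 3.69 in mIMCD-3. Nefl read 7.41 and 7.18, 5.75 and 5.77, 4.17 and 4.39, and 4.18. Dcx was thus called lower only against mesenchyme, and Nefl was called lower at each step.

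**Figure D3:**
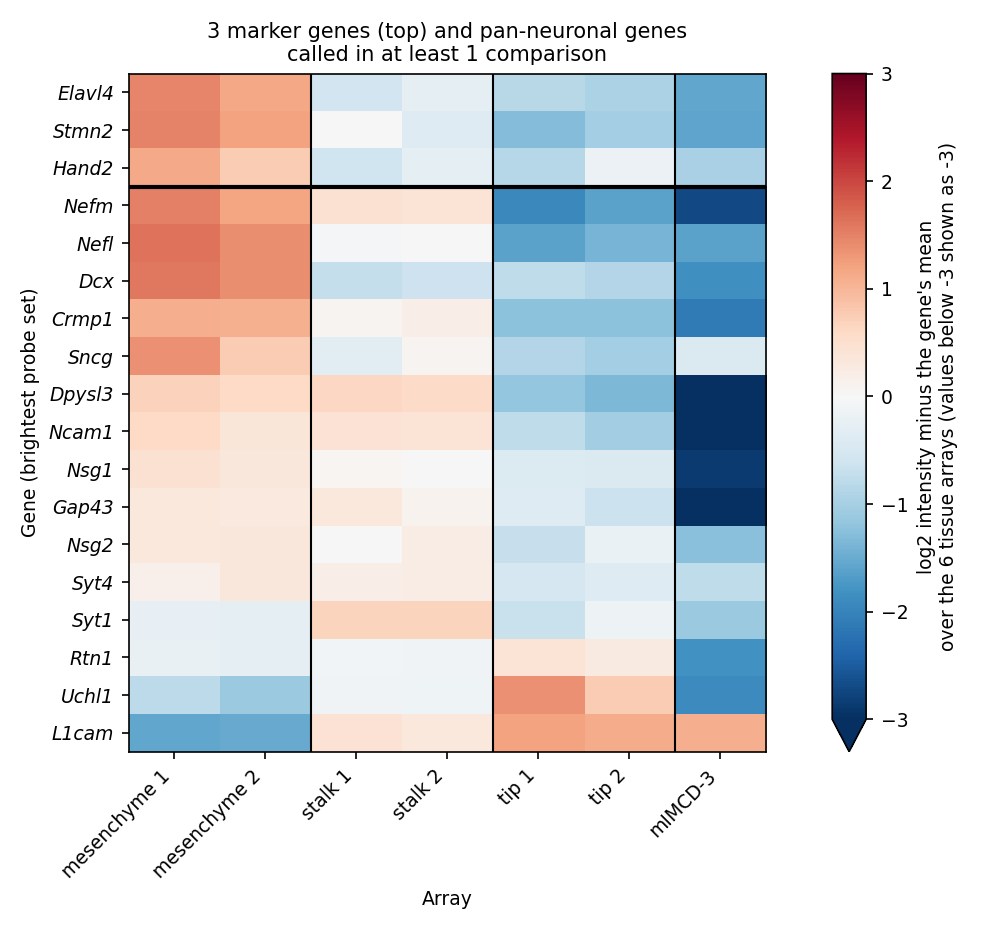
Log2 intensity minus the gene's mean over the 6 tissue arrays (colour, with values below -3 shown as -3) for the brightest probe set of Elavl4, Stmn2 and Hand2 and of the pan-neuronal genes called in at least 1 comparison (rows), on the 7 arrays (columns). Nefm, Nefl, Dcx, Crmp1 and Sncg are highest in mesenchyme with the 3 members, and among the 6 tissue arrays Uchl1 and L1cam are lowest there.

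Genes of sympathoadrenal and other autonomic neurons were mostly not called. Of 18 measured, 1 was lower and 3 higher in stalk, 3 lower and 1 higher in tip than in mesenchyme, and 3 lower and 1 higher in tip than in stalk. The stalk calls were Eya4 (-1.03, adjusted p = 0.0292), Gata2 (1.97), Cyb561 (1.26) and Isl1 (0.67, adjusted p = 0.0425). With the replicate block 3 were lower in stalk and 5 in tip, and leaving out either tip array gave 2 lower in stalk. Eya4 (-4.40), Isl1 (-1.38) and Insm1 (-0.94, adjusted p = 0.0347) were lower in tip, and Cyb561 (2.49) was higher. Isl1 and Eya4 lost their stalk call without any 1 of the 4 mesenchyme and stalk arrays, and Cyb561 without any of them but mesenchyme replicate 1. Insm1 lost its tip call without mesenchyme replicate 1, mesenchyme replicate 2, stalk replicate 1 or stalk replicate 2. The catecholamine enzyme genes did not pass the test. Th, tyrosine hydroxylase, read 5.63 and 5.96 in mesenchyme, 4.81 and 5.28 in stalk and 5.02 and 5.54 in tip, with differences of -0.75 (adjusted p = 0.218) and -0.52 (adjusted p = 0.283). Dbh differed by -0.37 and -0.35, and Phox2a, a factor of autonomic neurons, by -0.22 and -0.02.

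Of 13 sensory neuron genes, 0 were called in stalk against mesenchyme (limma, adjusted over all probe sets) and 1, lower, at an unadjusted p under 0.05. Ntrk2 (-1.14, adjusted p = 0.00732) and Ntrk3 (-0.82, adjusted p = 0.00922), receptors of neurotrophins, were lower in tip. Without mesenchyme replicate 1 the Ntrk3 call was lost, and without mesenchyme replicate 2 both were. Over the mean of each gene's probe sets the differences were -0.34 for Ntrk2 (adjusted p = 0.175) and -0.15 for Ntrk3 (adjusted p = 0.513). The sensory factor gene Pou4f1 differed by -0.41 in stalk (adjusted p = 0.425).

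Neural crest and Schwann cell precursor genes split. Of 21 measured, 8 were higher and 1 lower in stalk than in mesenchyme, and 6 were higher and 6 lower in tip. Of those that were higher, Erbb3 (3.74 in stalk, 4.91 in tip), Tfap2a (3.08 and 4.10), Mia (1.68 and 3.78) and L1cam (1.92 and 2.70) rose with the bud epithelial markers. Not every gene of the list did so. The crest receptor gene Ednrb read 8.66 and 8.40 in mesenchyme, 10.01 and 10.03 in stalk, 8.73 and 8.42 in tip and 3.58 in mIMCD-3. The 1 lower in stalk was Ngfr, the p75 neurotrophin receptor. Ngfr read 8.08 and 8.26 in mesenchyme, 6.88 and 6.85 in stalk, 6.49 and 6.51 in tip and 6.10 in mIMCD-3, a difference of -1.31 in stalk (adjusted p = 0.00148) and -1.67 in tip (adjusted p = 0.000123). Metanephric mesenchyme is itself a known site of Ngfr. Zeb2 (-2.59), Pmp22 (-2.38) and Snai2 (-2.18) were lower in tip. Foxd3, an early crest factor, differed by -0.34 in stalk and -0.37 in tip, and the glial gene S100b by -0.07 and 0.16, and like Sox10 they did not pass the test.

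Of 15 measured neurotrophic ligands and receptors, 2 were higher and 2 lower in stalk, and 4 higher and 5 lower in tip, than in mesenchyme. Without mesenchyme replicate 2, 2 were lower in tip. They included Gdnf, the mesenchymal ligand of Ret (-1.68 and -2.83), Ret (3.92 and 6.10), and its co-receptor Gfra1 (0.47, with an adjusted p of 0.175 or of 0.0489 with the replicate block, and 2.39), all of which also serve branching of the bud. The repressor Rest, which silences neuronal genes outside the nervous system, differed by 0.04 in stalk (95% interval -0.29 to 0.38) and -0.14 in tip (-0.47 to 0.20). Of 10 genes of its complex limma called 0 in either comparison with mesenchyme, against 0 in stalk and 2 in tip at an unadjusted p under 0.05. With the replicate block 1 was called higher in tip. Rcor2 was higher in tip than in stalk (0.60, adjusted p = 0.0413), but not without any 1 of mesenchyme replicate 1, mesenchyme replicate 2, stalk replicate 1, stalk replicate 2 or tip replicate 1.

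Markers of other cell types differed between the same arrays. The summed intensity of 10 nephron progenitor markers was 9105.9 and 10076 in mesenchyme, 2862.7 to 3053 in stalk and 957.88 to 1206.4 in tip, with 8 of 10 lower in stalk and 9 of 10 in tip. That of 10 stromal markers was 18847 to 19384 in mesenchyme, 17143 to 17924 in stalk and 1641.5 to 2076.9 in tip, with 2 lower and 2 higher in stalk and 10 lower in tip. Endothelial markers summed to 4388.1 to 4765.8, 3000.8 to 3046.9 and 1430.7 to 1532.7, with 2 of 12 lower in stalk and 10 in tip. Erythroid markers summed to 23748 to 24224, 17809 to 18115 and 9637.9 to 9910.2, with 3 of 6 and 5 of 6 lower. Myeloid markers summed to 1113.4 to 1264.6, 747.07 to 757.93 and 418.18 to 519, with 1 of 11 lower in stalk and 7 lower and 1 higher in tip. The stalk counts depended on single arrays. Without a mesenchyme or a stalk array, 0 or 1 of 12 endothelial markers were lower in stalk, and 6 were without either tip array or 7 with the replicate block. For myeloid markers 4 were lower without either tip array, 0 without stalk replicate 1 and 5 with the block. Without a mesenchyme or a stalk array 0 stromal markers were lower in stalk, and 1 of 6 erythroid markers was without mesenchyme replicate 1, mesenchyme replicate 2 or stalk replicate 1.

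From stalk to tip 8 of 10 progenitor, 10 of 10 stromal, 9 of 12 endothelial and 3 of 6 erythroid markers were lower, as were both Stmn2 probe sets, Nefl and Nefm, while Elavl4, Hand2 at 1436041_at and Dcx were not called in that comparison. Smooth muscle markers were called lower for 0 of 6 in stalk (2 of 6 with the replicate block, without either tip array and at an unadjusted p under 0.05) and 3 of 6 in tip. Skeletal muscle markers gave 1 of 8 higher in stalk and 2 of 8 lower in tip. The 13 bud epithelium markers summed to 886.44 to 944.27 in mesenchyme, 20513 to 20755 in stalk and 35393 to 38916 in tip. Of 7 adrenal cortex markers 0 were called in stalk (1, Mc2r, with the block, without either tip array and at an unadjusted p under 0.05) and Mc2r was lower in tip, and their sum stayed between 277.85 and 377.21 on the 6 tissue arrays. RMA gives no value of 0, so no marker was at 0. The part of these cell types in the differences of the members was not tested.

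**Figure D4:**
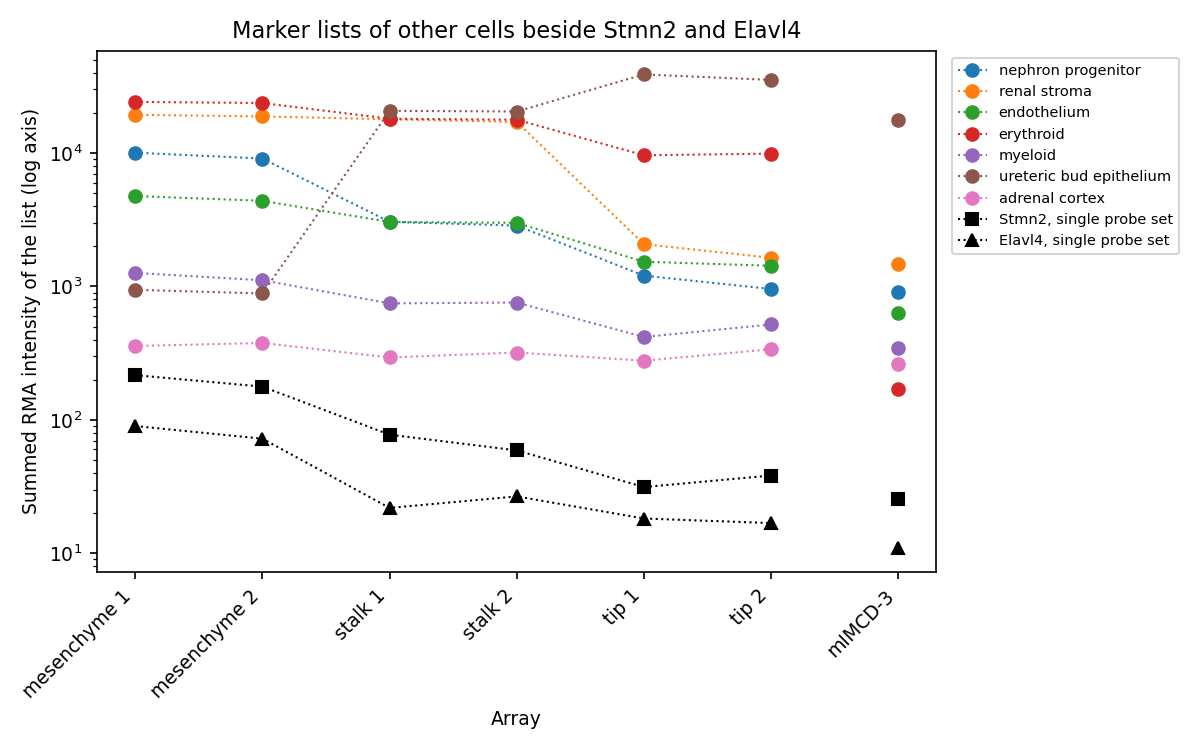
Summed RMA intensity of 7 marker lists and the intensity of 1 probe set of Stmn2 (1423280_at) and Elavl4 (1452894_at) (vertical log axis) on the 7 arrays (horizontal axis), with dotted lines joining the tissue arrays as a guide to the eye. Progenitor markers and Stmn2 are lower at each step from mesenchyme to stalk to tip, stromal markers are lower in tip, and Elavl4 is lower in stalk and tip than in mesenchyme.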

How the data were processed

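Expression was measured on 7 Affymetrix arrays. Per the labels and the series text, the authors computed the deposited values by robust multichip analysis (RMA) over all 7 arrays together. RMA is named in the submitters' processing notes, and its version is not given in the sources used here. These deposited values are linear intensity and were taken to log2. RMA gives no detection calls and compresses differences of dim probe sets. The number of arrays limits the precision.

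The table holds 45101 probe sets, 64 of them controls. The array annotation gives exactly 1 gene for 34945, several for 932 and none for 9160, and 99.4% of the single-gene Entrez identifiers were in the RefSeq table. The members and gene lists were chosen with earlier results of these data known. The 6 tissue arrays were fitted with limma 3.58.1 in R 4.3.3, with a mean per tissue, 3 residual degrees of freedom, two-sided tests and Benjamini-Hochberg adjustment over 45037 probe sets. On simulated data the fit recovered 89% to 94% of differences of 1 log2 unit and 100% of those of 2 units, and called 10 to 13 unchanged probe sets per comparison. The simulated noise was normal and independent between arrays, whereas replicate differences of the real tissues were correlated. These rates therefore need not hold for the real arrays, and an uncalled member is not shown to be unchanged. mIMCD-3 was described by size only. Genes of the 20 lists (224 distinct genes, 209 measured) were read at their brightest probe set. Genes were named from every member probe set, every family gene, up to 4 called genes per list and comparison with the largest difference (up to 2 where none was called), the 5 genes most like each member, and Cdh1, Ret, Six2 and Foxd1. Uchl1, Syt1, Rtn1, Th, Dbh, Phox2a, Foxd3, S100b, Ednrb, Rest and Mc2r, where outside this rule, were named after their values were seen. Plots were made in Python 3.11.15 (matplotlib 3.10.9).

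Whether equal replicate numbers pair the arrays, on which the labels are silent, was checked from the correlation of replicate 1 minus replicate 2 (mesenchyme with stalk 0.39, mesenchyme with tip 0.57, stalk with tip 0.43). Each was above 0.1, so a replicate block, with 2 residual degrees of freedom left, was run as an alternative. Others left out each array, fitted only the groups compared, used trended robust variances, centred the arrays, repeated the quantile normalization over tissue arrays, used log2(value + 32), dropped the dimmest 40%, or used 1 probe set or the mean of probe sets per gene.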

Additional observations from a re-analysis of the deposited data

Results flagged for a closer look

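Stmn2 was picked out because its fall against mesenchyme differed between tip and stalk, by -0.97 at 1423280_at (adjusted p = 0.0225) and by -1.50 at 1423281_at (adjusted p = 0.00324, limma). Both tip arrays were below both stalk arrays at each probe set. The values are the tip minus stalk differences already given and not a further result. The call at 1423280_at was lost without stalk replicate 1 or tip replicate 1, and neither probe set passed on the log2(value + 32) scale.

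Isl1, which encodes a factor of autonomic and sensory neurons, was picked out because stalk and tip departed from mesenchyme in opposite directions. Isl1 read 6.46 and 6.5 in mesenchyme, 7.22 and 7.09 in stalk, 5.0 and 5.19 in tip and 4.56 in mIMCD-3, and tip minus stalk was -2.06 (adjusted p = 0.000126, limma). That p does not test opposite directions from mesenchyme. The rise in stalk (0.67) lost its call without any single mesenchyme or stalk array and with trended robust variances.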

How the results depend on the processing

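No member reversed direction after a call under any alternative run. The fit with the replicate block gave 1 member gene and 1 member probe set higher in tip than in stalk (1443854_at of Hand2), where the fit without it gave 0. Other calls gained with the block included Insm1 (adjusted p = 0.0208) and Zeb2 (adjusted p = 0.00491) in stalk against mesenchyme, and Sncg (adjusted p = 0.0381), Sox9 (-0.53, adjusted p = 0.033), Tcf4 (adjusted p = 0.0119), Pou4f1 (adjusted p = 0.0352), Meox1 (adjusted p = 0.0197) and Cdh1 (adjusted p = 0.0208) in tip against stalk. On the log2(value + 32) scale 0 member genes and 0 member probe sets were lower in tip than in stalk. That scale also ended the stalk calls of 1428741_at of Elavl4 (adjusted p = 0.0678) and 1436041_at of Hand2 (adjusted p = 0.0669), and brought 1451689_a_at of Sox10 past the threshold in tip against mesenchyme (-0.34, adjusted p = 0.0445). Without the dimmest 40% of probe sets, 3 member probe sets were lower in stalk and 3 in tip than in mesenchyme, because 8 of the 15 remained. Leaving out 1 array at a time gave 1 to 2 member probe sets lower, and 0 to 2 member genes and 0 to 2 member probe sets higher, in tip than in stalk. The value of 2 came without tip replicate 1, with 1452524_a_at of Elavl3 (0.66, adjusted p = 0.0458) and 1443854_at of Hand2 (0.81, adjusted p = 0.0414). Trended robust variances ended the stalk calls of 1428741_at of Elavl4 (adjusted p = 0.0633) and of Isl1 (adjusted p = 0.0699). The cause of these changes was not tested, apart from the smaller number of probe sets. Over the alternatives, the share of the probe sets or genes tested under each that was called ran from 1.24% to 4.3% higher and 0.206% to 1.72% lower in stalk against mesenchyme, from 3.04% to 8.08% and 3.22% to 8.86% in tip against mesenchyme, and from 0.497% to 5.38% and 2.23% to 7.89% in tip against stalk.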
